A study of Arabidopsis thaliana with 3 samples.

Results

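The ddb2-3 library was set directly against the nrpd1a library of 24-nt small RNAs from Arabidopsis thaliana seedlings, over every distinct region that the 6 deposited region classes hold. The regions are stretches of differential DNA methylation, and their classes are named for the cytosine context (CG, CHG or CHH, where H is any base but G) and for a gain (hyper) or a loss (hypo) of methylation. Which genotypes were compared to define the gains and losses is not stated in the labels or file headers. Members were all 4481 distinct combinations of chromosome, start and end, out of 4481 in the series, and 2 of its 3 libraries. The ddb2-3 seedlings carried the insertion DsLoxHs195_05H, and the nrpd1a seedlings carried Salk_583051. The third library, from wild-type Col seedlings (WT), is quoted only where a region had no read in ddb2-3 or where a value in 1 mutant library stands apart. All seedlings were 10 days old and grown in vitro in liquid MS medium under a cycle of long light and short dark. The labels do not say whether seedlings were pooled. Each genotype has 1 library, so every value below compares 2 libraries and not 2 genotypes, no difference has a replicate check, and no test was possible.

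In plants, RNA polymerase IV, whose largest subunit is NRPD1, starts the main route to 24-nt small interfering RNAs (siRNAs). Its transcripts are copied by RDR2 and cut by DCL3, and the siRNAs are loaded into ARGONAUTE proteins that guide DNA methylation to transposons and repeats. Other RNAs of the same length can come from hairpins of inverted repeats, from secondary siRNA loci and from breakdown of abundant RNAs, none of which needs polymerase IV. DDB2 binds ultraviolet lesions in DNA and starts their repair by global genome nucleotide excision repair. The transcripts of DDB2 and NRPD1 are not in these files, so the labels could not be checked against them.

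Read levels are in RPM, reads scaled to a common library total. They were whole multiples of 0.120 RPM in ddb2-3 and of 0.727 RPM in nrpd1a, which gives the reads behind each value and the total the values were scaled to, 8345931 reads in ddb2-3 and 1376237 in nrpd1a. Over the regions there were 779644 ddb2-3 reads and 4160 nrpd1a reads. A region without nrpd1a reads may still hold up to 3 reads' worth, 2.18 RPM. That level is called the limit, and a fold against a region without reads is a lower bound computed against it. Intervals are exact 95% Clopper-Pearson intervals on these reads and cover counting error only. For a region without nrpd1a reads the interval reaches lower than the fold at the limit. Upstream of HEN1, for example, it reaches 8.95-fold where the limit gives 11.1-fold. A region just over the limit may thus have an interval that includes 1.

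Of the 4481 regions, 2807 (62.6%) held siRNAs in ddb2-3 at or over the limit and none in nrpd1a. A further 635 (14.2%) had reads in ddb2-3 and none in nrpd1a but lay under the limit, so the shallower library could not have shown a like level there. Both libraries had reads in 1024 regions (22.9%), nrpd1a alone in 3 (0.0669%) and neither in 12 (0.268%). Thinned to the depth of nrpd1a, ddb2-3 would be expected to lack reads in 140 regions (3.13%), against 3454 regions (77.1%) that lacked them in nrpd1a. The mean level was 20.8 RPM in ddb2-3 and 0.675 RPM in nrpd1a, and nrpd1a held 3.24% of the summed ddb2-3 level (interval 3.14 to 3.34%). By size alone, 4337 regions reached 1 RPM in a library, and 4228 of them (97.5%) were at least 2-fold higher in ddb2-3 on the log2(RPM + 1) scale, and 11 (0.254%) were at least 2-fold higher in nrpd1a. The 4228 include 516 regions under the limit in ddb2-3. With nrpd1a set to at least 3 reads in every region, 2753 were higher in ddb2-3.

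**Figure D1:**
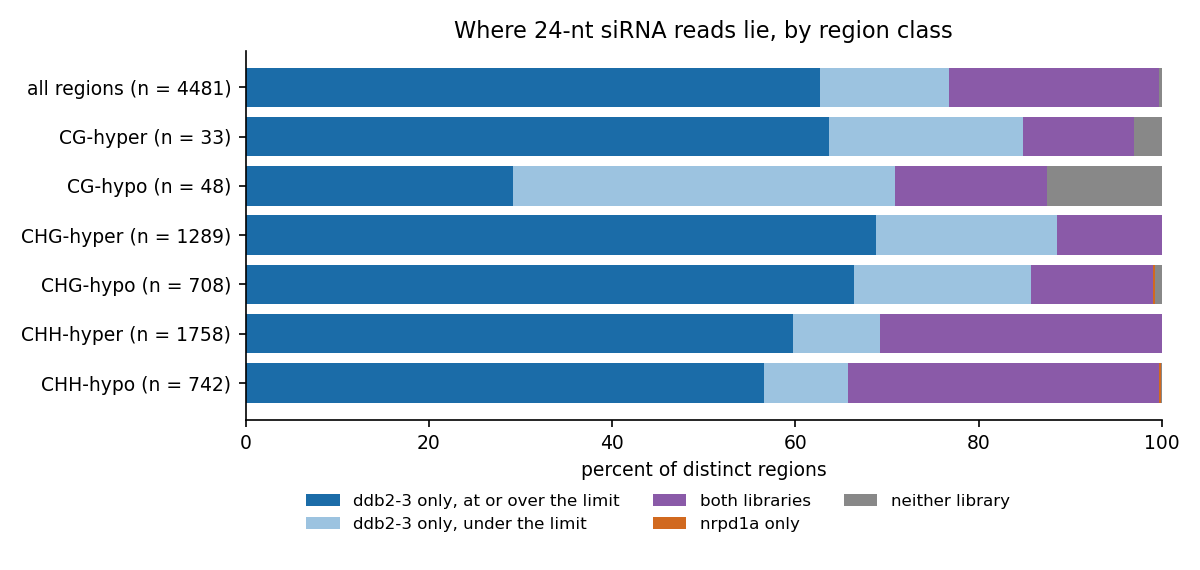
Percent of distinct regions (horizontal axis) in each state, for all 4481 regions and for each class; the limit is 2.18 RPM, the level of 3 nrpd1a reads. Regions with reads in both libraries made up 30.7% of CHH-hyper and 34.0% of CHH-hypo, against 11.5% of CHG-hyper and 13.3% of CHG-hypo.

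The few reads left in nrpd1a were gathered in a small number of regions. Of the 1027 regions with nrpd1a reads, 585 had 1 read, 202 had 2 and 240 had 3 or more. The 10 highest regions held 44.0% of the nrpd1a reads and the 100 highest 64.9%, while the 10 highest of ddb2-3 held 3.84% of its reads and the 100 highest 22.8%. The sequences below are of the regions that this contrast turns on, read from the forward strand of TAIR10.1, whose chromosomes have the coordinates of the TAIR10 build named in the submitters' processing notes.

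The region with the highest ddb2-3 level among those without nrpd1a reads is a copy of ATDNAI27T9A.
ATDNAI27T9A, chr5:9069301-9069400: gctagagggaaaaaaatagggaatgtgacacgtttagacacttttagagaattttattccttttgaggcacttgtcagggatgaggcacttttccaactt

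3 of the 4 regions of a chromosome 3 array, listed as ATDNA12T3_2, hold more nrpd1a reads than any of the other kinds of region described below, and their capitals mark runs of at least 12 bases that all 3 share on either strand.
ATDNA12T3_2, chr3:13763401-13763455: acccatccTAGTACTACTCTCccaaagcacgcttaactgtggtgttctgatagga
ATDNA12T3_2, chr3:13796043-13796100: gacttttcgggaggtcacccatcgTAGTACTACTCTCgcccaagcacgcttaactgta
ATDNA12T3_2, chr3:13862246-13862297: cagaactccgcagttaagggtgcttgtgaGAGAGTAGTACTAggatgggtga

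2 regions that were far higher in nrpd1a overlap tRNA genes, whose bases are in capitals.
HELITRONY1D with the tRNA-Cys gene AT5G20856, chr5:7074301-7074400: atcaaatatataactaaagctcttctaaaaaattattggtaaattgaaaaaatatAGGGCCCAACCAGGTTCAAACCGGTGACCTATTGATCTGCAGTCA
ATHILA5 with the tRNA-Asp gene AT1G43820, chr1:16585701-16585800: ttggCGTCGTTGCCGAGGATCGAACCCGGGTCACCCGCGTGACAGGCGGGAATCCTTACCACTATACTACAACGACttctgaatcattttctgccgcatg

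AT3G44580 lies in a long inverted repeat, and capitals mark runs of at least 24 bases whose reverse complement lies within 8 kb.
AT3G44580, chr3:16160801-16160900: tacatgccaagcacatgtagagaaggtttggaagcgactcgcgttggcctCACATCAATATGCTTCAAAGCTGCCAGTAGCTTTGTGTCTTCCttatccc

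AT1G63130, a gene of a repeat-protein cluster, is shown with every base that belongs to a 24-base run found more than once on chromosome 1 in capitals.
AT1G63130, chr1:23413701-23413800: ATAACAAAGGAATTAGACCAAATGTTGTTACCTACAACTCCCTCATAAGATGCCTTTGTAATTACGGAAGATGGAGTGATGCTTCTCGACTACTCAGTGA

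In AT2G07732 the capitals mark runs of at least 24 bases that are also in an organelle genome.
AT2G07732, chr2:3468501-3468600: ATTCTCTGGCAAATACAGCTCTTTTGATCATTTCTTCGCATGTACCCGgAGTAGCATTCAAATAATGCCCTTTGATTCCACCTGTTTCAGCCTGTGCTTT

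2 copies of ARNOLDY2, a Mutator-like element, show in capitals the runs of at least 16 bases that they share.
ARNOLDY2 in AT1G18130, chr1:6237301-6237400: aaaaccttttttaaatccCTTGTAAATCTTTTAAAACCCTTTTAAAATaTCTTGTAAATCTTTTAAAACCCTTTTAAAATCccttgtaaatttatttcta
ARNOLDY2 in AT5G36870, chr5:14525201-14525300: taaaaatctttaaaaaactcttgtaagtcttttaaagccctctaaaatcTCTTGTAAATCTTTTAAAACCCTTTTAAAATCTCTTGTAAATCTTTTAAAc

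The highest regions with siRNAs in ddb2-3 and none in nrpd1a lay in DNA transposons, in retrotransposons and in genes. The ATDNAI27T9A copy printed above lies in intergenic DNA 789 bp from AT5G25970. It had 371 RPM in ddb2-3 and no read in nrpd1a, which makes it at least 170-fold higher in ddb2-3. A VANDAL21 copy, a Mutator-like DNA transposon at chr2:3110501-3111000, had 325 RPM in ddb2-3 and no read in nrpd1a, at least 149-fold, beside 66.1 RPM in WT, and it holds a run of GA repeats. An ATHILA3 copy, a Gypsy retrotransposon at chr5:13025901-13026000 in the pseudogene AT5G34842, had 233 RPM in ddb2-3 and no read in nrpd1a, at least 107-fold. The same held for a copy of the Mutator-like ATMU3N1 in a non-coding exon of AT5G19210, which encodes a P-loop hydrolase and had 226 RPM in ddb2-3 and no read in nrpd1a, at least 104-fold. In the pericentromere, ATHILA6A at chr3:13662701-13663000 had 179 RPM in ddb2-3 and no read in nrpd1a, at least 82.3-fold.

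Genes for which the files list no repeat were among these regions too. An intron of AT4G03580 at chr4:1598501-1598600 had 308 RPM in ddb2-3 and no read in nrpd1a, at least 141-fold. A coding exon of ARF23, a member of the auxin response factor family, had 220 RPM in ddb2-3 and no read in nrpd1a, at least 101-fold, beside 45.5 RPM in WT. This exon holds a run of GA repeats and its 24-base runs have a median of 3993 copies in the genome, so its reads cannot be assigned to ARF23. AT4G16640, annotated to encode a matrixin family protein, had 107 RPM in ddb2-3 and no read in nrpd1a in a non-coding exon, at least 48.9-fold. The F-box gene AT3G17400 had 72.5 RPM in ddb2-3 and no read in nrpd1a in a coding exon, at least 33.3-fold.

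Repeat superfamilies differed in how little was left. Gypsy retrotransposons, which crowd the pericentromeres, kept 1.14% of the ddb2-3 level in nrpd1a (interval 1.04 to 1.26%, 1278 regions), LINEs 1.38% (1.01 to 1.84%, 167 regions), SINEs 1.31% (0.978 to 1.71%, 68 regions) and hAT elements 1.45% (1.07 to 1.91%, 132 regions). Helitrons, DNA transposons that move by a rolling circle, kept 2.22% (2.08 to 2.38%, 1191 regions) and Mutator-like elements 2.82% (2.58 to 3.07%, 687 regions). Of the 532 nrpd1a reads of Mutator-like elements, ARNOLDY2 held 191 in 48 regions and ARNOLDY1 held 96 in 44. The place of Mutator-like elements above Helitrons may rest on these 2 families, as a share without both was not computed. More was left in En/Spm elements, 3.35% (131 regions; 1.38% without 1 region), in Pogo elements, 5.53% (39 regions), and in repeats of other kinds, 12.01% (265 regions; 6.03% without the highest array region). The 4 array regions described later held 1047 of the 1237 nrpd1a reads in repeats of other kinds, and 5761 of the 62453 ddb2-3 reads. Neither 12.01% nor 6.03% thus describes the regions of that group outside the array. Regions without a repeat kept 15.7% (14.6 to 16.8%, 268 regions), or 10.4% without their region of most nrpd1a reads. By place in the annotation, pseudogenes and transposon genes kept the smallest share, 0.635% (0.546 to 0.733%, 1428 regions), and coding exons kept 18.2% (16.9 to 19.6%, 232 regions). The largest share was in non-coding RNA genes, 77.3% (66.3 to 89.6%, 17 regions). Of their 200 nrpd1a reads, 195 lay in the 4 regions with a tRNA gene described later, so this share does not describe the others. Of these 4 regions, 2 overlap and have 62 nrpd1a reads each. Without AT2G07732, described later, coding exons kept 11.5%. Of the 735 coding-exon nrpd1a reads, AT2G07732 held 272, AT3G44580 289, the repeat-protein cluster 51 and AT1G66290 42. These loci have no listed repeat, and with 62 reads in AT1G43820 they also hold most of the 803 nrpd1a reads of regions without a repeat. All are described later, and neither share describes the other regions of its group.

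Among the 54 repeat families with at least 20 regions, 39 kept under 2% of the ddb2-3 level in nrpd1a and 48 kept under 5%. No read at all was found in nrpd1a over the 23 regions of TNAT1A, whose ddb2-3 level summed to 299.8 RPM. At the limit of 3 reads its share would be 0.727%, and its exact interval reached 0.895%. VANDAL21 had 1 nrpd1a read over 27 regions and kept 0.0959% (interval up to 0.534%). Its 758 RPM in ddb2-3 include the copy with GA repeats described above. ATHILA0_I kept 0.208% (up to 0.750%), ATENSPM5 0.336% (up to 1.87%) and ATHILA4 0.345% (up to 1.25%). Each of these rests on 1 or 2 nrpd1a reads, so their order is not resolved. At the other end, HELITRONY1D kept 35.9% and ATHILA5 17.5%, but without the region of each that holds a tRNA gene these shares were 2.49% and 0.551%. BRODYAGA2 kept 5.87%, and 2.18% without its highest region. ARNOLDY2 and ARNOLDY1 kept 18.0% and 9.76%, and still 14.8% and 7.69% without their highest regions, so their shares did not rest on 1 region. In ARNOLDY2 regions a median of 46.8% of 24-base runs are unique in the genome. How reads with several matches were treated is not stated, so the same reads may count at several copies.

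**Figure D2:**
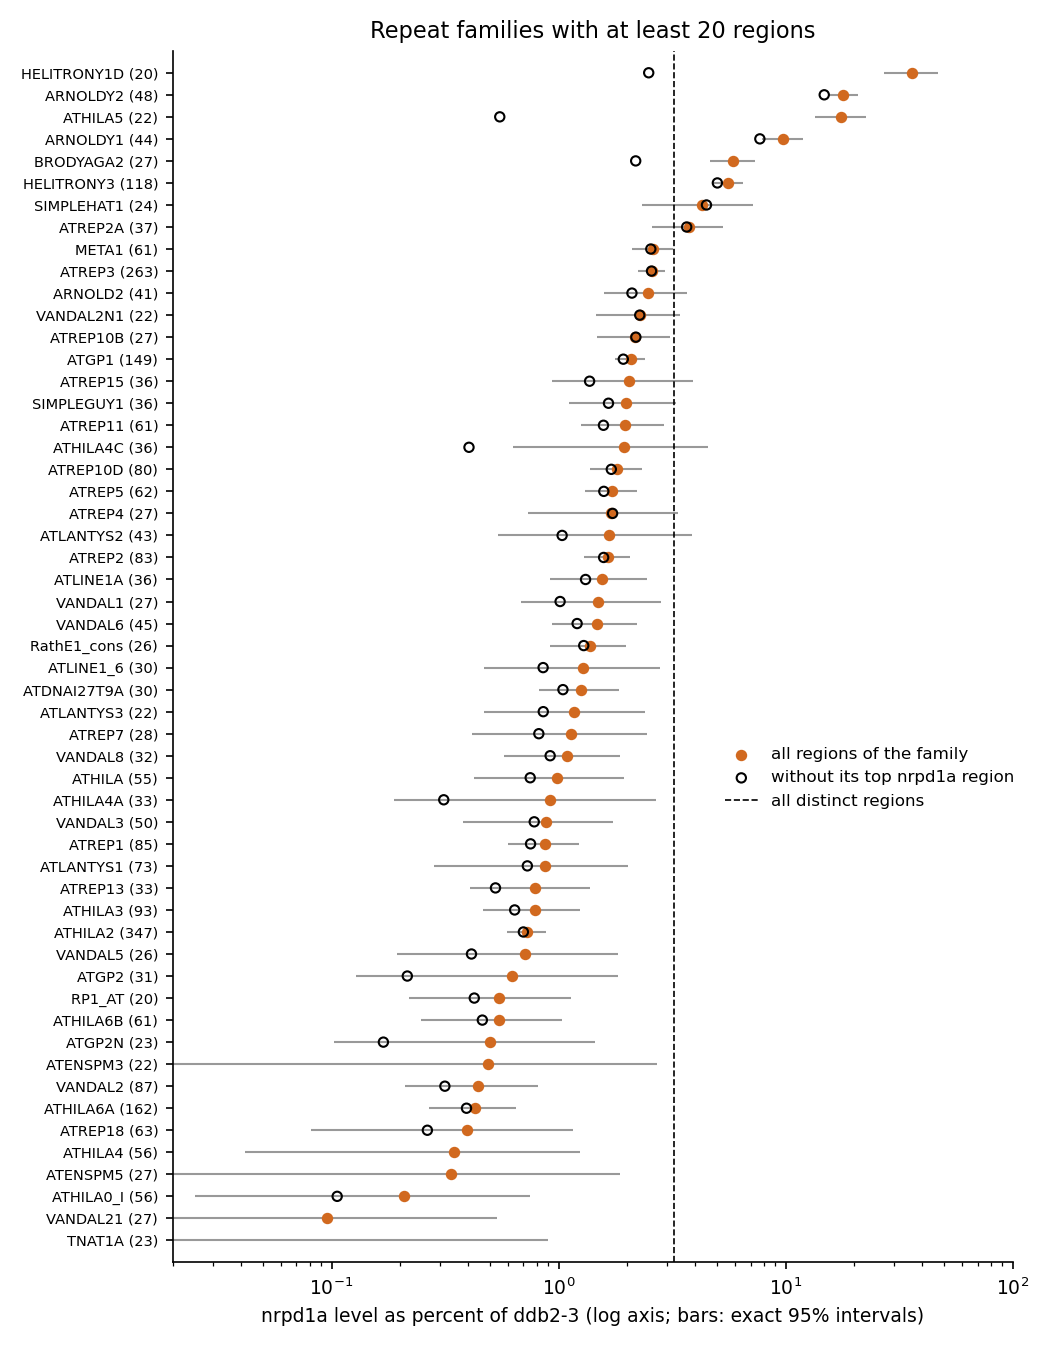
nrpd1a level as percent of the ddb2-3 level (horizontal log axis) for the 54 repeat families with at least 20 regions, with the number of regions in brackets; filled points are all regions of the family, bars exact 95% intervals, open points the share without the region of most nrpd1a reads, and the dashed line all regions together, 3.24%. TNAT1A, at 0, has no point, bars that reach the left edge run on below 0.02%, and open points at 0 are not drawn. HELITRONY1D and ATHILA5 fall far to the left without 1 region, while ARNOLDY2 stays at 14.8%.

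By class, nrpd1a kept 5.12% of the ddb2-3 level over CHG-hyper regions (interval 4.85 to 5.40%, 1289 regions), 1.95% over CHG-hypo (1.72 to 2.20%, 708 regions), 2.51% over CHH-hyper (2.39 to 2.64%, 1758 regions) and 3.37% over CHH-hypo (3.16 to 3.605%, 742 regions). Without the region of most nrpd1a reads in each class these were 2.83%, 1.39%, 2.02% and 2.59% in the same order of classes, and CHG-hyper moved by over 1.5 times. The CG classes are small: CG-hyper kept 18.7% over 33 regions (13.9 to 24.8%), or 6.94% without AT1G63130, and CG-hypo kept 6.62% over 48 regions (3.41 to 11.6%). In the pericentromeres, within 3 Mb of a centromere, 20 CG-hyper regions had no nrpd1a read, against a mean ddb2-3 level of 7.20 RPM. The 13 on chromosome arms kept 72.9%, or 29.3% without AT1G63130. All 50 CG-hyper nrpd1a reads lay on arms, 32 in AT1G63130 and 16 in AT1G63080, genes of the repeat-protein cluster described later. The CG-hyper share and its arm share thus rest mainly on 1 gene cluster. In regions with at least 90% unique 24-mers the class values were far from these and in another order: 15.5% for CHG-hyper, 4.15% for CHG-hypo, 1.03% for CHH-hyper, 1.31% for CHH-hypo and 1.15% for CG-hyper. Uniqueness was counted on the nuclear chromosomes alone. The unique CHG-hyper regions therefore include the organelle-like AT2G07732, with 272 nrpd1a reads, and they also include the HELITRONY1D region with a tRNA gene, with 55. Over all classes the 2670 pericentromeric regions kept 3.86% in nrpd1a, or 2.40% without the 3 array regions, and 17.3% of them had reads in both libraries. The 1811 regions on chromosome arms kept 2.49%, and 31.0% of them had reads in both, so which of the 2 kept more turns on the array.

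How often nrpd1a had any read followed the ddb2-3 level. Reads were found in nrpd1a in 9.64% of the 716 regions under 2.18 RPM in ddb2-3, in 25.2% of those from 10 to 20 RPM and in 66.0% of the 147 regions of 100 RPM or more. At like ddb2-3 levels the CHH classes had nrpd1a reads more often than the CHG classes. From 10 to 50 RPM in ddb2-3 the shares were 37.2% of 670 CHH-hyper and 41.1% of 270 CHH-hypo regions, against 17.4% of 379 CHG-hyper and 23.5% of 200 CHG-hypo regions. In the same range they were 19.9% of 478 Gypsy regions and 41.4% of 406 Helitron regions. The classes differ in their repeats, and the part of repeat content in the class difference was not tested.

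**Figure D3:**
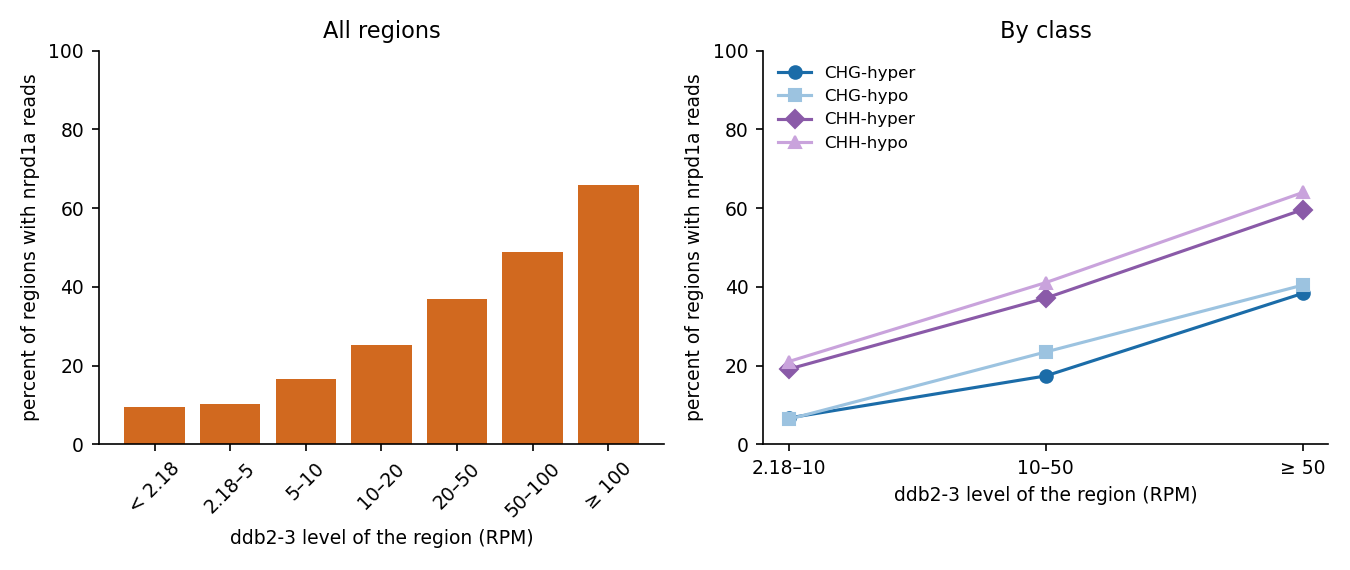
Percent of regions with at least 1 nrpd1a read (vertical axes) by the ddb2-3 level of the region in RPM (horizontal axes), for all regions (bars) and for the 4 CHG and CHH classes (lines). The share climbs to 66.0% at 100 RPM or more, and both CHH classes lie above both CHG classes in each of the 3 level ranges.

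Regions held in both libraries were compared one by one where each library had at least 3 reads, which left 239 regions. The interval of the ratio lay above 1 in 190 of them, so ddb2-3 was higher, it lay below 1 in 10, and it included 1 in 39, so 49 of the 239 (20.5%) were not higher in ddb2-3 by this measure. This filter acts through nrpd1a, where 3 reads are 2.18 RPM against 0.359 RPM in ddb2-3, so it keeps regions that are high in nrpd1a and its counts do not stand for all regions. In 42 regions (17.6%) the ddb2-3 level was under 2-fold that of nrpd1a, and in 141 it was at least 10-fold. These 42 include the 10 whose interval lay below 1, up to 37.6-fold higher in nrpd1a. Regions without a repeat gave 9 of them, HELITRONY3 5 and ATDNA12T3_2 3. An inverted repeat with arms of at least 50 bp, found within 3 kb, touched 7 of the 42 (16.7%), 2 of them the adjoining AT3G44580 regions, against 7.53% of the 239 and 2.66% of all regions. The median GC content was 26% in the 42, 31% in the 239 and 36.4% over all regions.

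6 kinds of region, picked after their values were seen and partly by their nrpd1a reads, account for 49.0% of the nrpd1a reads and 1.71% of the ddb2-3 reads in 69 regions. Over these 69 regions nrpd1a held 92.9% of the ddb2-3 level (interval 88.7 to 97.4%), and over the other 4412 it held 1.68% (1.61 to 1.75%). The kinds are 3 of the 4 regions of the chromosome 3 array, AT3G44580, the repeat-protein cluster, the regions with a tRNA gene, those that share 24-base runs with an organelle genome, and ARNOLDY2. The fourth array region, which was left out for its low nrpd1a level, changes the first of these shares to 81.6% over 70 regions (77.9 to 85.4%).

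**Figure D4:**
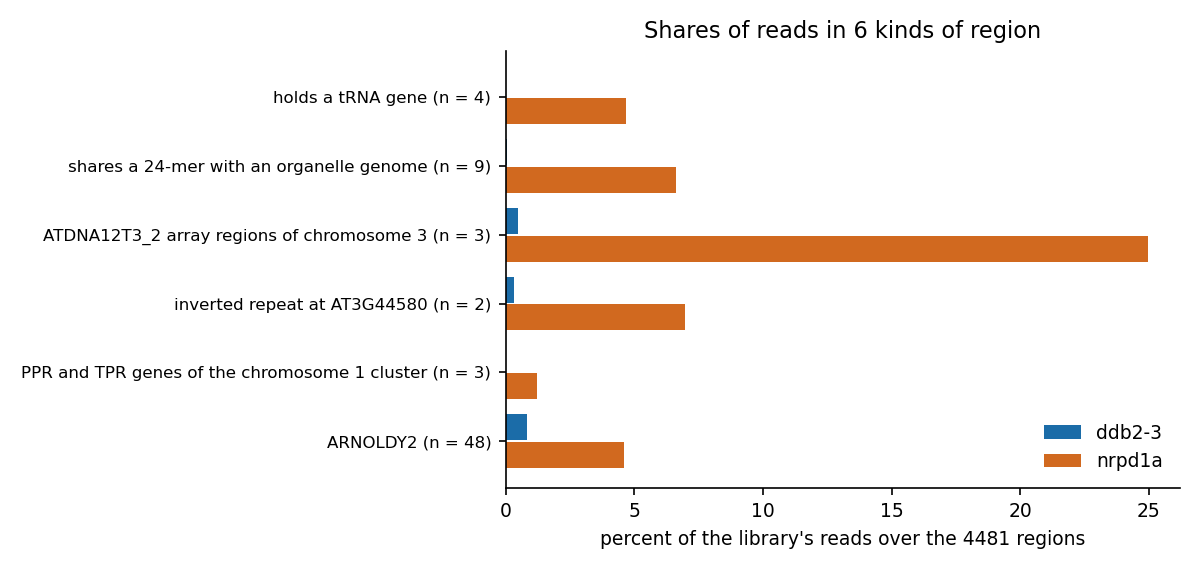
Percent of each library's reads over the 4481 regions (horizontal axis, from 0) that fell in 6 kinds of region, with the ddb2-3 bar above the nrpd1a bar and the number of regions in brackets. The 3 array regions drawn, out of 4, hold 25.0% of the nrpd1a reads and 0.492% of the ddb2-3 reads.

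The chromosome 3 array gave the most nrpd1a reads. The region at chr3:13763401-13763455 had 258 RPM in ddb2-3 against 463 RPM in nrpd1a, so nrpd1a was 1.795-fold higher (interval 1.64 to 1.96). At chr3:13796043-13796100 the levels were 139 RPM in ddb2-3 and 228 RPM in nrpd1a, 1.64-fold higher in nrpd1a (1.44 to 1.86). At chr3:13862246-13862297 they were 62.8 RPM in ddb2-3 and 63.2 RPM in nrpd1a, and the interval of the ratio included 1. All 3 are copies of 1 unit that recurs along the chromosome: at 80% identity or more, the region first named has 373 copies on chromosome 3 with a median spacing of 506 bp, 70 copies on chromosome 5 and 13 on chromosome 4. The annotation used here places no gene on this unit and lists 4 nuclear rRNA genes in all. Arabidopsis is known to carry its 5S rRNA genes in tandem arrays, none of which is in that annotation, so whether the reads of this unit are rRNA fragments or siRNAs was not tested.

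Another stretch near copies of this unit differed. The region at chr3:13859301-13859400 has 366 copies itself on chromosome 3, also with a median spacing of 506 bp, and its copies lie a median of 92 bp from those of the region first named. It had 230 RPM in ddb2-3 and 6.54 RPM in nrpd1a, 35.2-fold higher in ddb2-3 (interval 18.5 to 77.1). All 4 array regions together had 690.3 RPM in ddb2-3 and 761 RPM in nrpd1a. The other 13 regions listed as ATDNA12T3_2 had between 0.120 and 25.5 RPM in ddb2-3 and at most 2 nrpd1a reads each, with none in 9.

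AT3G44580 encodes an uncharacterised protein and lies in an inverted repeat whose arms measure 1673 bp at 90.7% identity, with no gap between them. Its 2 adjoining regions had 241 and 58.1 RPM in ddb2-3, against 155 and 54.5 RPM in nrpd1a. The ddb2-3 level was 1.55-fold that of nrpd1a in the region at chr3:16160801-16160900 (interval 1.35 to 1.79), and the interval included 1 in its neighbour. The other 23 regions in repeats with arms of at least 500 bp had at most 2 nrpd1a reads each, and together kept 1.90% of the ddb2-3 level (0.820 to 3.75%). A BRODYAGA2 copy 248 bp from MYB53, a transcription factor gene, touches an inverted repeat with arms of 241 bp and had 46.1 RPM in ddb2-3 against 37.1 RPM in nrpd1a, with an interval that included 1. The F-box gene AT1G66290 had 38.7 RPM in ddb2-3 against 30.5 RPM in nrpd1a in a coding exon with no inverted repeat, also with 1 inside the interval.

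ARNOLDY2 gave 10 of the 42 regions with a ratio under 2, more than any other repeat family. Reads were present in both libraries in 29 of its 48 regions, and 19 had none in nrpd1a at ddb2-3 levels between 1.08 and 35.1 RPM. In the 14 regions with at least 3 reads in each library, levels spanned 3.35 to 40.7 RPM in ddb2-3 and 2.18 to 26.2 RPM in nrpd1a. Over all 48 regions the summed level was 773 RPM in ddb2-3 and 139 RPM in nrpd1a, 5.57-fold higher in ddb2-3. The copy in an intron of AT1G18130, annotated to encode a class II aminoacyl-tRNA and biotin synthetase family protein, had 10.5 RPM in ddb2-3 and 26.2 RPM in nrpd1a, 2.48-fold higher in nrpd1a (interval 1.63 to 3.70). The copy in an intron of GSL09 (AT5G36870), a glucan synthase-like gene, had 12.5 RPM in ddb2-3 against 13.1 RPM in nrpd1a, with 1 inside the interval. Of the 24-base runs in these 2 copies, 24.7% and 28.6% are unique in the genome, so a read may count at several copies. The 14 regions had a median GC content of 21.7%, and the 19 without nrpd1a reads one of 27%.

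A count of 11 regions at 9 separate stretches was at least 2-fold higher in nrpd1a, and most of their reads lay in tRNA genes, organelle-like sequence and a cluster of repeat-protein genes. AT2G07732, annotated to encode a Rubisco large subunit domain protein, had 7.67 RPM in ddb2-3 and 198 RPM in nrpd1a, 25.8-fold higher in nrpd1a (interval 19.6 to 34.4). Of its 24-base runs, 68.8% are also in an organelle genome, so reads from there cannot be told apart from its own. The other 8 regions with such runs had no nrpd1a read in 6 cases.

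The tRNA-Asp gene AT1G43820 had 1.20 RPM in ddb2-3 and 45.1 RPM in nrpd1a, 37.6-fold higher in nrpd1a (interval 19.1 to 82.3). It is covered by 2 overlapping regions that hold the same number of reads in ddb2-3 and in nrpd1a, 1 of them listed as ATHILA5. The HELITRONY1D region that overlaps the tRNA-Cys gene AT5G20856 had 2.88 RPM in ddb2-3 and 39.96 RPM in nrpd1a, 13.9-fold higher in nrpd1a (8.46 to 23.5). A region inside the tRNA-Val gene AT3G26747 had 12.8 RPM in ddb2-3 against 11.6 RPM in nrpd1a, with 1 inside the interval. WT levels were 2.87 RPM in the ATHILA5 region, 3.38 RPM in the HELITRONY1D region and 11.8 RPM at AT3G26747. Among the annotated tRNA, rRNA, snoRNA and snRNA genes, which hold no tandem array of 5S rRNA genes, these 3 were the only ones that a region matched over at least 40 bp at 90% identity.

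Pentatricopeptide repeat (PPR) proteins bind organelle RNAs, and a group of their genes on chromosome 1 is a known source of secondary siRNAs in Arabidopsis. AT1G63130, annotated with the related TPR fold, had 5.27 RPM in ddb2-3 and 23.3 RPM in nrpd1a, 4.41-fold higher in nrpd1a (interval 2.71 to 7.11). The PPR gene AT1G63080 had 5.63 RPM in ddb2-3 and 11.6 RPM in nrpd1a, 2.06-fold higher in nrpd1a (1.09 to 3.71). The PPR gene AT1G63400 had 2.04 RPM in ddb2-3 against 2.18 RPM in nrpd1a, with 1 inside the interval. Each of the 3 had less in WT, at 1.18, 2.03 and 0.507 RPM. None of the 24-base runs in the AT1G63130 region is unique in the genome. In the AT1G63080 and AT1G63400 regions 31.2% and 37.7% are unique, so a read may count at several places. A PPR gene on chromosome 2, AT2G27229, went the other way, with 13.3 RPM in ddb2-3 and no read in nrpd1a.

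The remaining regions higher in nrpd1a rest on few reads. LHCA2, a light-harvesting protein of photosystem I, had 0.240 RPM in ddb2-3 and 4.36 RPM in nrpd1a, from 6 nrpd1a reads. An ARNOLDY1 copy 1036 bp upstream of AT4G37030 had 2.88 RPM in ddb2-3 and 7.99 RPM in nrpd1a, 2.78-fold higher in nrpd1a (interval 1.23 to 5.89). An ATREP3 copy upstream of AT5G28150 had 0.120 RPM in ddb2-3 and 1.45 RPM in nrpd1a, from 2 nrpd1a reads, and its interval included 1. UBQ4, a ubiquitin gene, is not among the 11 and had 1.20 RPM in ddb2-3 against 1.45 RPM in nrpd1a.

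In 15 regions ddb2-3 had no read, and none of these was empty in WT. No region was empty in all 3 libraries, and whether the listing of regions required reads in 1 of them is not stated. WT reads in these regions may therefore follow from the listing. The 3 with nrpd1a reads are 2 overlapping ATREP11 regions upstream of AT2G34730, with 2 nrpd1a reads, and AT5G21125, with 1. The ATREP11 pair is among the 11 regions higher in nrpd1a. Its shorter region, at chr2:14653601-14653700, had no read in ddb2-3 and 1.45 RPM in nrpd1a, beside 58.2 RPM in WT. The 12 regions empty in both mutant libraries had between 1.01 and 44.1 RPM in WT. These 12 regions form 10 separate stretches. Of the 12, 8 are Helitrons, against 26.1% of all regions, 4 lie in genes, against 9.44%, and 11 lie on chromosome arms, against 40.4%. By class they are 6 of the 48 CG-hypo regions, 5 of 708 CHG-hypo, 1 of 742 CHH-hypo and 1 of 33 CG-hyper, with AT4G16195 in 2 classes. All 12 have at least 90% unique 24-mers, against 17.4% of all regions. Whether their position and repeats follow from this uniqueness was not tested. An ATREP1 copy 1467 bp upstream of ZIP3, a zinc transporter gene, had no read in ddb2-3 or nrpd1a and 44.1 RPM in WT. An ATREP4 copy upstream of AT3G24250 had 8.29 RPM in WT, and AT4G16195, of the plant self-incompatibility protein S1 family, 5.41 RPM, with no read in ddb2-3 or nrpd1a at either. For a region such as AT4G16195, 0 reads in ddb2-3 allow up to 0.359 RPM and 0 reads in nrpd1a up to 2.18 RPM.

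Genes of methylation and repair were looked up in 5 lists, in their bodies and within 2 kb upstream. Of 34 genes of RNA-directed DNA methylation and methyltransferases, 4 had a region. The ATREP15 copy 911 bp upstream of NRPD1 itself had 6.11 RPM in ddb2-3 and no read in nrpd1a, at least 2.80-fold. An ATREP3 copy upstream of HEN1, the methyltransferase that protects small RNA ends, had 24.2 RPM in ddb2-3 and no read in nrpd1a, at least 11.1-fold. An ATLINE2 copy upstream of SUVH9, which helps recruit polymerase V, had 36.7 RPM in ddb2-3 and 0.727 RPM in nrpd1a, from 1 nrpd1a read. The fourth, upstream of the CG methyltransferase gene MET1, lay under the limit.

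Of 22 genes of nucleotide excision repair and photolyases, 2 had a region. PHR1, the photolyase for pyrimidine dimers, has 2 adjoining ATMU3N1 regions upstream. The nearer one had 13.7 RPM in ddb2-3 and no read in nrpd1a, at least 6.27-fold, and the farther one had 24.9 RPM in ddb2-3 and 3.63 RPM in nrpd1a, 6.86-fold higher in ddb2-3 (interval 2.89 to 21.3). The region upstream of RAD23D, a carrier of repair and ubiquitin substrates, had 1.797 RPM in ddb2-3 and no read in nrpd1a, which is under the limit. Among 18 known targets of DNA methylation only RPP7, a disease resistance gene, had regions, 3 in number. A VANDAL1N1 copy in an intron had 18.6 RPM in ddb2-3 and no read in nrpd1a, at least 8.52-fold. An intronic ATCOPIA8B copy had 2.76 RPM in ddb2-3 and no read in nrpd1a. That is 1.26-fold at the limit, but its interval reached down to 0.948 and so included 1. A SIMPLEHAT1 copy upstream had 1.56 RPM in ddb2-3 against 0.727 RPM in nrpd1a, with an interval that also included 1. None of the 5 DNA demethylase genes and none of the 8 TAS loci had a region.

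**Figure D5:**
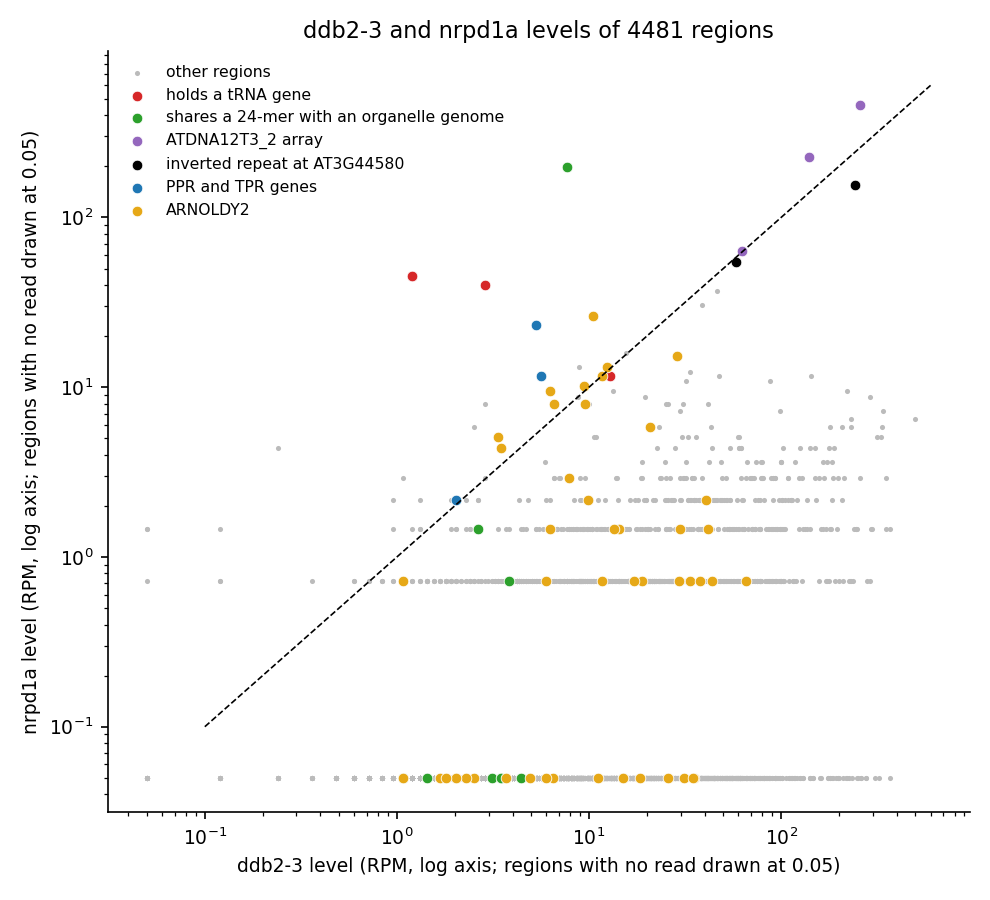
ddb2-3 level (horizontal log axis) against nrpd1a level (vertical log axis) of the 4481 regions in RPM, with regions of no read drawn at 0.05, 6 kinds of region in colour and equal levels as a dashed line. Most regions lie on the bottom row or in rows of 1 or 2 nrpd1a reads far to the right of the line, and the coloured points at the top are the array, AT3G44580, AT2G07732 and the tRNA genes.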

How the data were processed

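24-nt small RNA levels of 3 libraries were deposited as 1 table per library and region class, in RPM (reads scaled to a common library total by the authors). The submitters' processing notes name CASAVA 1.8.2, Bowtie, bedtools and the TAIR10 build. How the RPM total was counted, how reads with several matches were treated and how region classes were called is not given in the sources used here; the read length and class come from the file names. The tables were joined on chromosome, start and end. All deposited RPM values (100%) were whole multiples of a step per library within 0.1 read, so reads were recovered. With 1 library per genotype no test between genotypes was possible, and p-values and replicate errors are not given. Levels were compared as summed RPM with exact 95% intervals, and regions by a 2-fold rule on log2(RPM + 1) with a minimum of 1 RPM. On the recovered reads, an exact binomial test of the 2 libraries with Benjamini-Hochberg adjustment called 3311 regions higher in ddb2-3 and 13 higher in nrpd1a, which compares these libraries and not the genotypes. Regions in several classes count in each, and 167 regions overlap another, so sums count shared reads more than once. Coordinates are those of the files: of 345 gene IDs listed for regions, 334 overlapped their region in the TAIR10.1 annotation (RefSeq). Repeat superfamilies were assigned by name. Inverted repeats and copies were found with blastn 2.17.0; other steps used Python 3.11.15 with pandas 2.3.3 and scipy 1.17.1, and the interval and the size rule were tested on simulated data. Regions named are, for each class, the 2 highest in ddb2-3 without nrpd1a reads and the 2 highest held in both, those higher or present in nrpd1a alone, the 5 highest WT levels among empty regions, the 5 highest and lowest repeat families, members of 5 gene lists, and genes without a repeat at both extremes; not all of them are quoted. Matching 1067 RNA gene sequences, array copies and the 6 kinds of region were added after values were seen. The comparison, members and lists were chosen with earlier results of these data known.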

Additional observations from a re-analysis of the deposited data

Results flagged for a closer look

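All 12 regions without a read in ddb2-3 and in nrpd1a had WT reads above the level that 3 WT reads give, 0.507 RPM, in a library outside the comparison of the mutants. The 5 with the highest WT levels are given here. The ATREP1 copy upstream of ZIP3 had 44.1 RPM in WT, the ATREP4 copy upstream of AT3G24250 had 8.29 RPM, AT4G16195 had 5.41 RPM, the ATREP5 copy 191 bp upstream of AFH14 had 3.21 RPM, and GH9B14 had 2.54 RPM. No region was empty in all 3 libraries, so WT reads in these 12 may follow from how the regions were listed, which is not stated. With 1 library per genotype these differences were not tested.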

How the results depend on the processing

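No paired analysis was possible because each genotype has 1 library, and for the same reason no library could be left out. Counts were taken as close within 1.5 times the reported count, and shares within the reported share's interval, which is narrow for the large classes. Of 80 alternative values, 44 were close, 36 moved and none reversed. Counts fell by construction where fewer regions or reads were admitted: a limit of 10 nrpd1a reads gave 1589 regions with siRNAs in ddb2-3 only, at least 3 reads in each library gave 239 held in both, at least 3 nrpd1a reads gave 0 in nrpd1a only, and a minimum of 10 RPM gave 1941 higher in ddb2-3 and 6 in nrpd1a. Among the 779 regions with at least 90% unique 24-mers, 461 had siRNAs in ddb2-3 only, 81 were held in both, 690 were higher in ddb2-3 and 5 in nrpd1a. ddb2-3 thinned to the depth of nrpd1a gave 124 regions expected empty in both and 16.0 in nrpd1a only. A pseudocount of 3 RPM left 7 higher in nrpd1a. Setting nrpd1a to at least 3 reads gave 2753 higher in ddb2-3 and 66 in nrpd1a, which the raised values create.

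The nrpd1a share of the ddb2-3 level over all regions moved to 4.97% (unique regions), 3.02% (without organelle-like regions), 2.56% (without the 1% highest), 3.88% (nrpd1a rescaled by the median ratio of 1.20), and, in alternatives chosen after seeing the data, 3.08% (without tRNA genes) and 2.44% (without the 3 array regions, or all 4). The pericentromeric share of 3.86% moved to 2.40% without the 3 and 2.39% without all 4. Unique regions gave 1.15% for CG-hyper, 15.5% for CHG-hyper, 4.15% for CHG-hypo, 1.03% for CHH-hyper and 1.31% for CHH-hypo. Organelle copies did not count against uniqueness. The unique CHG-hyper regions include AT2G07732 (272 nrpd1a reads) and the HELITRONY1D region with a tRNA gene (55), and those of CHG-hypo include AT1G66290 (42). Shares of unique regions without these were not computed, and the cause of the shifts was not tested. CHG-hyper was 4.13% without organelle-like regions. Without the 1% highest regions CHG-hyper was 2.89%, CHH-hyper 2.29% and CHH-hypo 2.92%. After rescaling, CHG-hyper was 6.14%, CHG-hypo 2.34%, CHH-hyper 3.01% and CHH-hypo 4.05%. Depth limits the 635 regions under the limit and every region with 1 or 2 nrpd1a reads.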
